A study of Homo sapiens with 6 samples.

Results

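MYC, MAX, MXD1, MXI1, MXD3, MXD4, MNT, MGA and MLX encode the transcription factors of the MYC, MAX and MXD network, and their 9 mRNAs were examined in MCF10A cells after depletion of PAX9. The genes were chosen by exact symbol from a processed table of 41656 rows that holds 26822 gene symbols, and where a symbol had several rows the row with the highest mean level was kept. All 9 were found, each in 1 row. The MCF10A cell line was derived from breast epithelium, does not form tumours and grows in medium with serum, EGF and insulin. The 2 groups were cells transfected for 72 hours with 30 nM of non-targeting siRNAs (siNT, 3 samples) or of siRNAs against PAX9 (siPAX9, 3 samples). The study asked which mRNAs depend on PAX9, a paired-box transcription factor of RNA polymerase II, and MYC is a known driver of ribosome production, the process the study follows. The table gives 1 FPKM per group and gene, a read count scaled to transcript length and library size, with no value per sample. No error between samples could therefore be computed, no difference was tested, and each change below is a description of 2 pooled values. The table gives no depth for these values.

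The network works through pairs of proteins. MYC must pair with MAX to bind DNA, at a short sequence called the E-box, and the pair activates genes of growth and division. MXD1, MXI1, MXD3, MXD4 and MNT compete with MYC for MAX and repress through the SIN3 corepressor, and several of them are known to increase when cells stop dividing and differentiate. MGA joins MAX in a repressive complex of the Polycomb type, and MLX is the partner through which the glucose-sensing Mondo proteins (MLXIP and MLXIPL) bind DNA.

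The E-box was looked for in the promoters because it is the sequence through which the members act. It was searched as the 6 bases CACGTG, which read the same on both strands, in RefSeq promoter windows that run from 250 bases before to 50 bases after a gene start (build GRCh38.p14). Windows were matched for 8 of the 9 members, all but MYC. MXD4, MNT and MLX held the sequence in their window, and MAX, MXD1, MXI1, MXD3 and MGA did not in any of theirs. Over all 35116 windows, 7.26% held it, and over the 9475 genes with a window and a mean FPKM of at least 1 the share was 12.7%. The stretches around the 3 matches are shown with the E-box in capitals, 5′ to 3′ on the strand of the gene. They lie at chr4:2262306-2262359 on the minus strand for MXD4, chr17:2401212-2401289 on the minus strand for MNT and chr17:42567014-42567091 on the plus strand for MLX.
MXD4: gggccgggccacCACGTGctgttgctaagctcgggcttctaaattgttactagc
MNT: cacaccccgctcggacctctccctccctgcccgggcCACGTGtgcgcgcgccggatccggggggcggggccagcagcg
MLX: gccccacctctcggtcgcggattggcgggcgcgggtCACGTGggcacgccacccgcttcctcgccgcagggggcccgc
The E-box began 238 bases before the gene start in MXD4, 193 in MNT and 50 in MLX. A match describes the letters of the window and says nothing of what is bound there.

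PAX9, the target of the siRNAs, had 2.80 FPKM under siNT and 0.325 under siPAX9, 8.60-fold lower. The 12 markers of breast epithelial cells were all present at a mean FPKM of at least 1. By any amount 6 were lower and 6 higher in siPAX9, with a median log2 change of 0.0082, and 3 of 12 were past 2-fold, where 12.9% of the 13145 genes with a mean FPKM of at least 1 were. Of these, EPCAM was 2.05-fold lower in siPAX9, and CDH1 and KRT6A were 2.74-fold and 2.61-fold higher. Of 12 markers of blood, vessel, stroma, fat and hormone-receptor positive cells, 3 had a mean FPKM of at least 1. The summed FPKM of all 12 was 11.0 in siNT and 15.7 in siPAX9, and the T cell marker CD3E was listed at 0 in both groups. PECAM1, of vessel cells, was at 2.58 FPKM in siNT and 0.495 in siPAX9. COL1A1, of stromal cells, was at 0.454 and 4.13, and ACTA2, of smooth muscle and myoepithelial cells, was at 7.77 and 10.6. The part of these markers in the results was not tested.

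MYC was the most abundant member that had a row of its own, and it was lower after PAX9 depletion. Its FPKM was 394.3 in siNT and 247.9 in siPAX9, 1.59-fold lower (log2 change -0.67). MYC lay at rank 198 of the 13145 genes in siNT and at rank 248 in siPAX9, so it stayed among the most abundant mRNAs of these cells. A change at least this far down was seen in 13.8% of the 13145 genes. Among the 710 genes with a mean FPKM of at least 100, as MYC had, 72.3% were lower and the median log2 change was -0.35. The MYC row lies on chromosome 8 from 128748315 to 128753680 (UCSC hg19), and in the GENCODE annotation the gene overlaps the noncoding RNA CASC11 on the opposite strand by 3554 bases. FPKM is a share of the library, and fewer cells that carry an mRNA cannot be told apart from less of it per cell. The 3 rows nearest to MYC in the 2 levels were SLC25A5, which encodes a mitochondrial ADP/ATP carrier, a joined row of NUDT3 and RPS10, and FAU, which encodes a ribosomal protein fused to a ubiquitin-like one. They were found by distance on the log2 scale over only 2 values, at 0.032, 0.045 and 0.12. Their log2 changes were -0.67, -0.73 and -0.50, and the closeness of these to the change of MYC follows from how the rows were picked.

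MAX, the shared partner, differed little between the groups. It was at 41.1 FPKM in siNT and 37.2 in siPAX9 (log2 change -0.14), and the median change of the 13145 genes was -0.07. MYC exceeded MAX in FPKM 9.60-fold in siNT and 6.65-fold in siPAX9. The MAX gene lies on chromosome 14 from 65472892 to 65569413 in the GENCODE annotation of GRCh37, which shares its coordinates with UCSC hg19. It overlaps FNTB on the opposite strand by 56479 bases, and whether the libraries kept the strand is not given in the sources used here. The row that holds FNTB was at 31.6 FPKM in siNT and 33.2 in siPAX9.

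**Figure D1:**
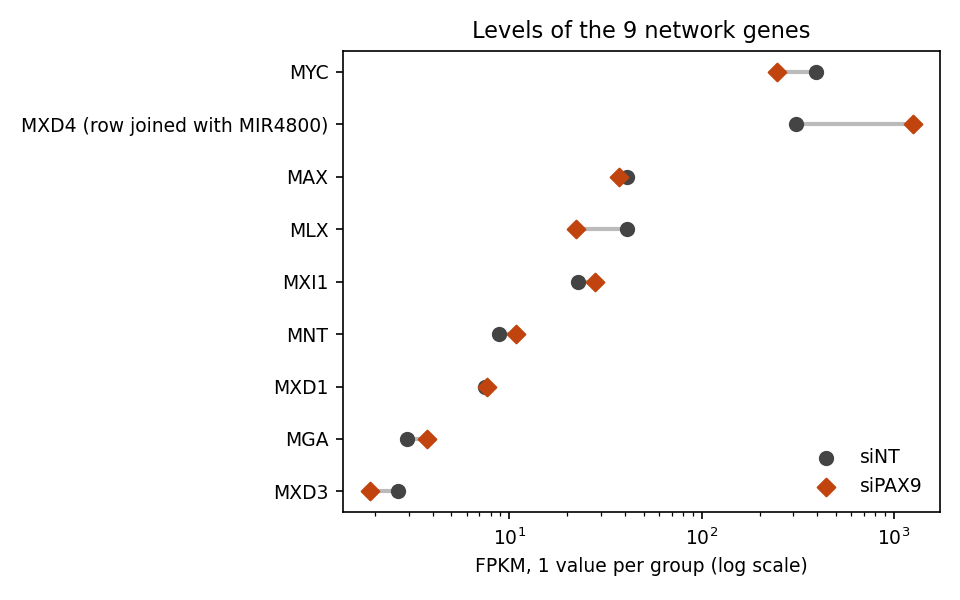
FPKM of the 9 network genes on a log scale, with 1 pooled value for siNT (circles) and 1 for siPAX9 (diamonds) and no error bars because no value per sample was given. MYC moved from 394.3 to 247.9 and MLX from 41.0 to 22.4, the other separate rows moved less in fold, and the MXD4 row, which is joined with MIR4800, moved from 307.8 to 1250.

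Of the repressing partners of MAX that had a row of their own, MXI1 and MNT were slightly higher in siPAX9, MXD1 was level and MXD3 was lower. MXI1 was at 22.7 FPKM in siNT and 27.9 in siPAX9 (log2 change 0.29). MNT was at 8.85 and 10.9 (0.30). These are the partners with the higher levels among the 4. MXD1 was at 7.47 and 7.68 (0.04), and its gene overlaps SNRNP27 on the same strand by 7888 bases. MXD3, which is known for its expression in proliferating cells, was at 2.65 and 1.89 (-0.49). The rows lie on chromosome 10 from 111967363 to 112047123 for MXI1, chromosome 17 from 2287354 to 2304258 for MNT, chromosome 2 from 70142173 to 70170076 for MXD1 and chromosome 5 from 176730763 to 176739292 for MXD3. None of these 4 reached a 2-fold change, the fold part of the study's threshold. MXD3 was the least abundant of the 9 members in both groups, and its gene overlaps the far more abundant PRELID1 (130.2 FPKM in siNT, with a log2 change of -0.35) on the opposite strand by 3151 bases and RAB24 on the same strand by 2284 bases. The part of these overlaps in the MXD3 value was not tested.

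Summed over MXD1, MXD3, MXI1 and MNT, and leaving out the joined row of MXD4, the repressing partners were at 41.7 FPKM in siNT and 48.4 in siPAX9. In siNT this sum nearly equalled MAX, at 1.02 times its FPKM, and in siPAX9 it was 1.30 times MAX. MYC exceeded the sum 9.45-fold in siNT and 5.13-fold in siPAX9, so the ratio of MYC mRNA to these 4 partners was 1.84-fold lower after PAX9 depletion. With the joined row of MXD4 in the sum, MYC was at 1.13 times the partners in siNT and 0.191 times in siPAX9. That row also holds the microRNA MIR4800 and outweighs the other 4, so this ratio cannot be read as one of mRNA levels. The other ratios compare mRNA levels per length, and none compares amounts of protein.

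MXD4 had the largest change of the members, in a row that it shares with a microRNA. In siNT the row was below MYC and above the other members, and in siPAX9 it was above all other members. The row was at 307.8 FPKM in siNT and 1250 in siPAX9, 4.06-fold higher (log2 change 2.02), and it was the only one of the 9 past 2-fold. Past 2-fold in that direction were 6.37% of the 13145 genes, and past it in either direction 12.9%. The row carries the symbols MIR4800 and MXD4 at chromosome 4 from 2249090 to 2263841 (UCSC hg19). In the GENCODE annotation MIR4800 is an 80-base gene, from 2251804 to 2251883, that lies on the same strand inside the last exon and 3′ UTR of MXD4. A read of MXD4 mRNA from there can be counted to either transcript. FPKM divides by length, so a read counted to the short transcript weighs far more than one counted to the mRNA. The part of this in the change was not tested, and the value of MXD4 mRNA cannot be told apart from that of MIR4800 in this row. The mature microRNA of RefSeq is shown to identify the partner in the row, with its seed (bases 2 to 8) in capitals.
hsa-miR-4800-3p: cAUCCGUCcgucuguccac

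Joined rows of this kind are described by their counts, with no test. Of 171 rows that join a microRNA with another gene and have a mean FPKM of at least 1, 20.5% were past 2-fold in either direction and 9.94% were past 4-fold. Of the 11780 rows with a single symbol, 12.6% were past 2-fold and 3.17% past 4-fold. Rows with several symbols but no microRNA (445 rows) resembled the single ones, with 10.3% and 2.02%. Of the 17 joined rows past 4-fold, 10 were higher and 7 lower in siPAX9. The lower group was under 1 FPKM in 7 of these 17 and in 205 of the 373 single-symbol rows past 4-fold, rows that were counted only through their higher group. The 3 kinds of row also differed in level, with a median mean FPKM of 24.9 for rows joined with a microRNA, 10.3 for single symbols and 16.0 for the other joined rows. The part of level in these shares was not tested. The MXD4 row ranked 9 from the highest change among the 171 and 3 by mean level. Among the joined rows, C15orf48 with MIR147B had the largest increase (0.114 to 666 FPKM) and SOX6 with MIR6073 the largest decrease (23.3 to 0.410 FPKM), and both were named after their values were seen.

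**Figure D2:**
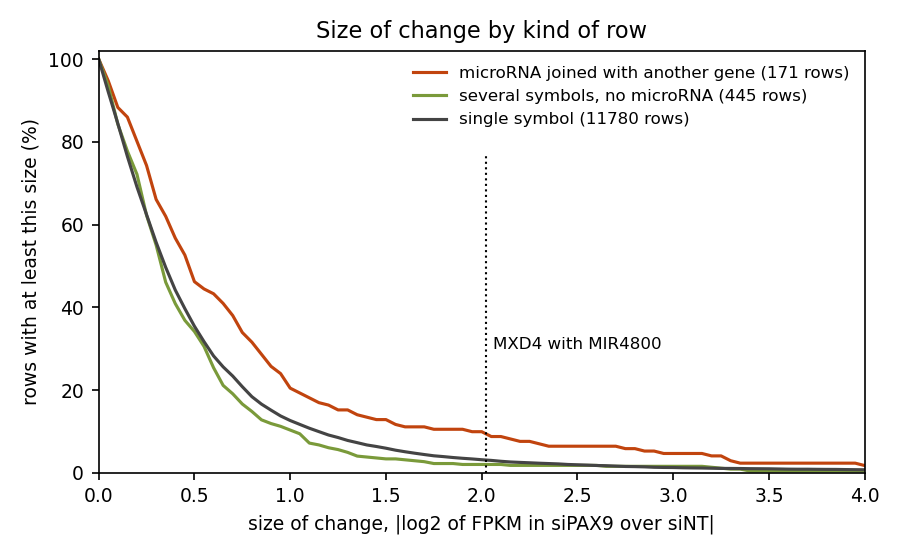
Share of rows, in percent, whose change has at least the size on the x axis, given as the absolute log2 of FPKM in siPAX9 over siNT. The 171 rows that join a microRNA with another gene lie above the 11780 single-symbol rows and the 445 other joined rows, with 9.94% against 3.17% and 2.02% past 4-fold, and the dotted line marks the MXD4 row at 2.02.

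MGA, which carries a T-box as well as a MAX-binding domain, was at 2.95 FPKM in siNT and 3.76 in siPAX9 (log2 change 0.35), in a row on chromosome 15 from 41952610 to 42062141. MLX was at 41.0 FPKM in siNT and 22.4 in siPAX9, 1.83-fold lower (log2 change -0.87). MLX was thus the member with the largest decrease, and 8.45% of the 13145 genes had a change at least as low. Its gene, on chromosome 17 from 40719090 to 40725257, overlaps PSMC3IP on the opposite strand by 930 bases. PSMC3IP was at 2.15 and 1.96 FPKM, far under the level of MLX. MLXIP, the Mondo protein expressed in these cells, was at 15.8 FPKM in siNT and 14.8 in siPAX9 (-0.09), so MLX exceeded it 2.60-fold in siNT and 1.51-fold in siPAX9.

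Across the 9 members, 4 were lower and 5 higher in siPAX9, with a median log2 change of 0.04, and without MXD4 the counts were 4 and 4 and the median -0.05. Among all 13145 genes, 55.4% were lower and the median was -0.07. From the most to the least abundant, the 8 members with their own rows stood in siNT in the order MYC, MAX, MLX, MXI1, MNT, MXD1, MGA and MXD3. In siPAX9 the order was the same but for MLX and MXI1, which changed places. MXI1 was at 0.555 times the FPKM of MLX in siNT and at 1.25 times in siPAX9. With no spread between samples, neighbours in this order, such as MAX and MLX in siNT at 41.1 and 41.0 FPKM, cannot be called different. At a 1.5-fold change, MYC, MLX and MXD4 were past the threshold, 3 of 9, where 29.8% of the 13145 genes were.

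**Figure D3:**
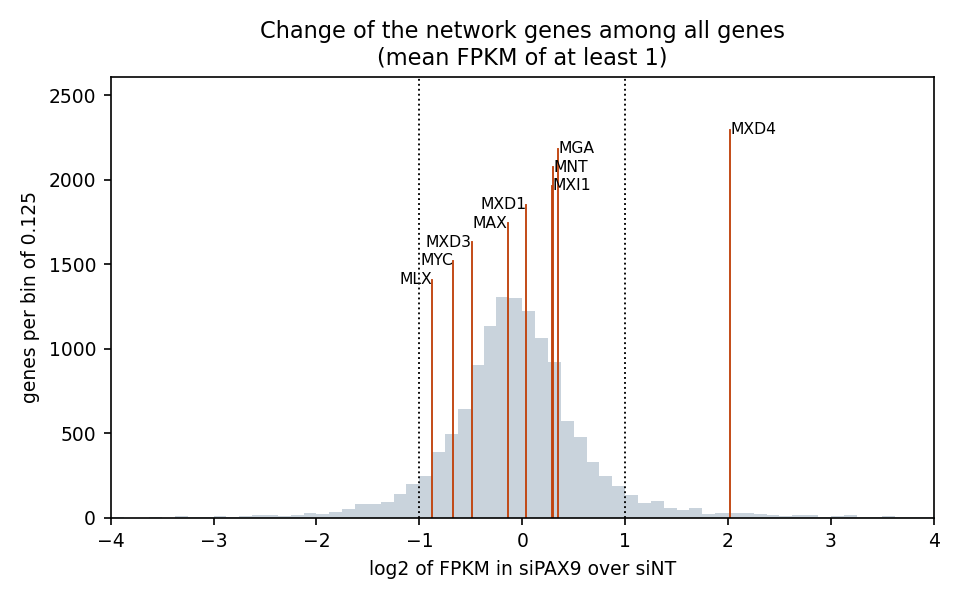
Log2 of FPKM in siPAX9 over siNT for the 13145 genes with a mean FPKM of at least 1 (histogram, bins of 0.125, drawn from -4 to 4) with the 9 network genes marked by lines whose heights only separate the labels. MLX (-0.87) and MYC (-0.67) lie on the lower side, 6 members lie between -0.49 and 0.35, and only the MXD4 row (2.02) is past the dotted lines at 2-fold.

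The other dimer partners were at low levels. MYCN and MYCL, which stand in for MYC in other tissues, were under 1 FPKM in both groups (MYCN at 0.0118 in siNT and listed at 0 in siPAX9, MYCL at 0.210 and 0.561). MLXIPL, the Mondo protein of liver and fat, was at 0.0889 and 0.110 FPKM. MYC and MLXIP were therefore the MYC-type and Mondo-type mRNAs measured above 1 FPKM.

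The cofactors of the repressing pairs and of MGA had a median change near 0 for the SIN3 complex and below it for the MGA complex. Of 18 genes of the SIN3 and NCOR corepressors, 1 was past 2-fold lower and 0 higher, with a median log2 change of 0.05. That gene was SAP30, a small subunit of the SIN3 complex, at 26.9 FPKM in siNT and 11.5 in siPAX9. Of 13 genes of the Polycomb-type complex that contains MGA (PRC1.6), 11 were lower, 1 of them past 2-fold, and the median was -0.39, where 55.4% of the 13145 genes were lower by any amount. The gene past 2-fold was CBX1, which encodes a heterochromatin protein, at 35.9 and 17.6 FPKM. Past 2-fold lower were 6.57% of the 13145 genes, and 1 of 18 and 1 of 13 are near that share. The SIN3 list and the PRC1.6 list share HDAC1 and HDAC2.

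MYC coactivators and the regulators of MYC protein stability had median changes near that of all genes (-0.07). Of 19 coactivators, 12 were lower and 7 higher, with a median of -0.03. Of the 19, 1 was past 2-fold, where 12.9% of the 13145 genes were in either direction. It was CDK9, the kinase of the elongation factor P-TEFb, at 16.6 FPKM in siNT and 55.5 in siPAX9, in a row joined with MIR2861 and MIR3960. Of 16 genes that control MYC turnover, 2 were past 2-fold lower and 0 higher, with a median of -0.03, where 6.57% of the 13145 genes were past 2-fold lower and 12.9% in either direction. The 2 of 16 in either direction is near that share. AURKA, a mitotic kinase that shields MYC-family proteins from degradation, was 2.70-fold lower (17.1 to 6.33 FPKM). CIP2A (KIAA1524 in the table), an inhibitor of the phosphatase that acts on MYC, was 2.21-fold lower (5.20 to 2.35 FPKM). FBXW7, the ubiquitin ligase subunit that marks MYC for degradation, was at 13.3 and 25.2 FPKM (log2 change 0.92), just under 2-fold, and was singled out after its value was seen.

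Of the known targets of Mondo and MLX pairs, ARRDC4 was past 2-fold higher and the other counted genes were not. Of 5 genes, 4 had a mean FPKM of at least 1 and all 4 had a value above that of siNT in siPAX9, 1 of them past 2-fold, where 44.6% of the 13145 genes were higher by any amount and 6.37% past 2-fold. ARRDC4, an arrestin-like protein, was 3.36-fold higher, at 6.37 FPKM in siNT and 21.4 in siPAX9. TXNIP, the best known target of these pairs and an inhibitor of glucose uptake, was at 231.8 and 241.9 FPKM (log2 change 0.06) and was named after its value was seen.

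Genes that MYC is known to activate were mostly lower in siPAX9, with most changes under 2-fold. Over 3 hand-written lists, 72 of 74 genes had a mean FPKM of at least 1. Of these, 10 were read from rows joined with other symbols, whose part in the value could not be separated. Of the 72, 66 were lower, 14 past 2-fold lower (19.4% of them, where 6.57% of all 13145 genes were) and 1 past 2-fold higher. The lower share was 91.7%, against 55.4% of all genes. Highly expressed genes were lower more often in general. Among the 710 genes with a mean FPKM of at least 100, 72.3% were lower and the median was -0.35, and among the 3399 genes from 20 to 100 FPKM 63.0% were lower with a median of -0.15. The part of expression level in the counts of these lists was not tested beyond these values. All 3 lists were written with earlier results of these data known, so their counts are not independent evidence.

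All 30 nucleolar and ribosome assembly targets were lower, with a median log2 change of -0.43 and a range from -1.44 to -0.01. Of the 30, 6 were read from rows joined with other symbols, such as NOP2 with CHD4. Past 2-fold were NPM1, the nucleolar phosphoprotein nucleophosmin, at 940.9 FPKM in siNT and 347.0 in siPAX9, and FBL, the rRNA methyltransferase fibrillarin, at 153.5 and 56.6. The other 28 were not past 2-fold, and 2 of 30 is near the 6.57% of all 13145 genes past 2-fold lower, while 55.4% of all genes were lower by any amount. NPM1 has many processed copies in the genome, and how reads shared with them were counted is not given in the sources used here. Earlier results on nucleolar mRNAs of these samples were known when the list was written, so its direction is not independent evidence.

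Of the 30 metabolic and translation targets, 26 were lower, 6 past 2-fold, and none was past 2-fold higher (median -0.46), where 55.4% of the 13145 genes were lower and 6.57% past 2-fold lower. SHMT2, which feeds one-carbon metabolism in mitochondria, was 3.69-fold lower, from 151.4 to 41.0 FPKM. HNRNPA1, a splicing factor whose row also holds its copy HNRNPA1P10, was 2.62-fold lower, from 254.9 to 97.4 FPKM. ODC1, the first enzyme of polyamine synthesis, was 2.58-fold lower, from 113.2 to 43.9 FPKM.

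The cell cycle targets had the lowest median, -1.05, with 6 of 12 past 2-fold lower and 1 past it higher, where 6.57% and 6.37% of the 13145 genes were. BIRC5 (survivin) was 4.27-fold lower (18.0 to 4.22 FPKM), the mitotic kinase PLK1 went from 22.5 to 5.92 FPKM (log2 change -1.93) and CCNB1 (cyclin B1) was 3.43-fold lower (35.1 to 10.2 FPKM). These 3 are mitotic genes as well as reported MYC targets, so the list is not particular to MYC. ID2, an inhibitor of differentiation factors, went the other way, from 0.697 FPKM in siNT to 22.7 in siPAX9. It met the mean FPKM of at least 1 only through its siPAX9 level.

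Of 11 genes that MYC is known to repress, 9 had a mean FPKM of at least 1, and 6 of these were higher and 3 lower in siPAX9, where 44.6% of the 13145 genes were higher. The 3 past 2-fold were all higher, where 6.37% of the 13145 genes were past 2-fold higher, and they encode known brakes of the cell cycle. CDKN1A, the CDK inhibitor p21 and also a target of p53, was 5.41-fold higher (69.0 to 373 FPKM). CDKN1C (p57) was 3.35-fold higher (4.76 to 16.0 FPKM) and GADD45A, a gene of the stress and damage response, 2.50-fold higher (12.0 to 30.1 FPKM). The median of the 9 was 0.35. This list too was written with earlier results of these data known, so its direction is not independent evidence.

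**Figure D4:**
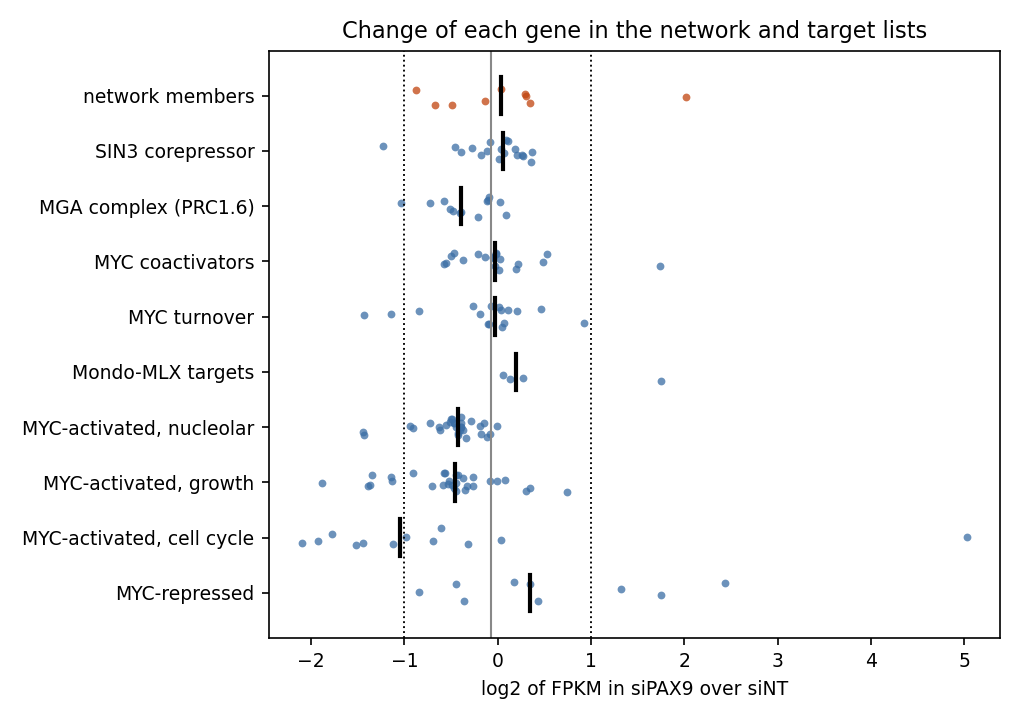
Log2 of FPKM in siPAX9 over siNT for each gene with a mean FPKM of at least 1 in the network (top, orange) and in 9 lists of cofactors and targets, with the median of each list as a black bar, the median of all genes (-0.07) as a grey line and dotted lines at 2-fold; vertical scatter within a list only separates the points. The 3 lists of MYC-activated genes have medians of -0.43, -0.46 and -1.05, and the MYC-repressed list lies at 0.35. ID2, counted only through its siPAX9 level, is the point at 5.02. The lists were written with earlier results of these data known.

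The E-box was held by a larger share of the promoters of MYC-activated genes than of expressed genes. E-boxes are part of how many MYC targets came to be known, so the lists are not independent of the sequence. It was found for 11 of 23 nucleolar targets, 11 of 26 metabolic and translation targets and 4 of 9 cell cycle targets with a promoter window, against 12.7% of genes with a mean FPKM of at least 1. Of the MYC-repressed genes 1 of 6 held it, and of the targets of Mondo and MLX pairs 3 of 4. Among all 587 genes with a window that were past 2-fold lower, 11.9% held the E-box, and among the 510 past 2-fold higher 6.86% did.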

How the data were processed

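Poly(A)+ RNA of 6 samples, 3 per group, was sequenced as single-end reads. Per the study's methods and the submitters' processing notes, the authors used Partek Flow, with Bowtie 2 for alignment (UCSC hg19) and Cufflinks for the deposited FPKM values, which are 1 per group and locus. Bowtie 2 does not split reads across introns, and how reads over exon junctions were treated is not given in the sources used here. The study's methods state a range of reads per sample, but the table holds no counts, so the reads behind each FPKM cannot be given. The annotation and the normalization between libraries are not given in the sources used here. The deposited table also holds the authors' own log2 fold changes, test statistics, p-values and q-values, which were not used.

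Change was computed as log2 of siPAX9 over siNT FPKM without a pseudocount. Background genes were symbols with a mean FPKM of at least 1 and values above 0 in both groups (13145), and a gene was called past at 2-fold, the fold part of the study's threshold, without its q-value part. With the authors' test columns not used and 1 value per group, no test was run. Named genes were all members, PAX9, from each list up to 3 decreases and 3 increases past 2-fold (if none, the largest decrease and increase), and the 3 genes nearest to MYC. Outside this rule, genes that overlap a member, other dimer partners (MYCN, MYCL and MLXIPL), the markers ACTA2 and CD3E, and genes marked so in the text were named after their values were seen. The members and lists were chosen with earlier results of these data known. Starts were converted to count from 1. Overlaps were read from GENCODE release 44 placed on GRCh37, which shares coordinates with hg19, and promoters and the microRNA came from RefSeq (GRCh38.p14). The calling and the motif search were tested on simulated data. Python 3.11.15, numpy 2.4.6, pandas 2.3.3 and matplotlib 3.10.9 were used.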

Additional observations from a re-analysis of the deposited data

How the results depend on the processing

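The changes of the 9 members kept their direction and their side of the 2-fold threshold when 1 was added to each FPKM and when changes were centred on the median of all genes (18 of 18 values). Summing the rows of a symbol could not change a member, since each had 1 row. With 1.5-fold in place of 2-fold, 3 members were past the threshold in place of 1, as were 25 MYC-activated genes lower and 2 higher, and 2169 of all genes lower and 1745 higher. Without the filter on mean FPKM, 1504 genes were past 2-fold lower and 2537 higher, and with a mean FPKM of at least 5 the counts were 531 and 385. With rows of a single symbol only, which drops MXD4, 0 members were past 2-fold and the median change of the members was -0.0508 in place of 0.04. These member results were added after the data were seen. The same setting was planned for the lists, where 5 genes of the network lists were past 2-fold in place of 6. There, 13 MYC-activated genes were past 2-fold lower in place of 14. No paired analysis was possible because the table holds 1 pooled value per group, and for the same reason no sample could be left out. The table holds no counts, so the number of reads behind each value and the precision of low values such as MXD3 cannot be stated.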
